A study of Mus musculus with 30 samples.

Results

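Kidney expression of Kif3aΔTub mice given an activin receptor trap was set against that of wild-type mice given the vehicle, to describe which disease changes were left in the kidney under the trap. The 7 arrays were chosen by their labels for tissue, genotype and treatment, out of 15 kidney arrays and 30 arrays in all, and 17782 genes were measured on each. The treated mutants (4 arrays) carried the Kif3aΔTub genotype, also labelled Kif3aKSPCre, and received sActRIIB-Fc into the peritoneum at 10 mg/kg, weekly, with 2 injections up to the age of 6 weeks. The untreated wild type (3 arrays) received PBS and were of the same age of 6 weeks. For orientation, the untreated mutants (Kif3aΔTub with PBS, 4 arrays) and the treated wild type (sActRIIB-Fc, 4 arrays), also aged 6 weeks, are given beside them. Genotype and trap both differ between treated mutants and untreated wild type, so this comparison alone cannot tell them apart.

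Kif3a is a subunit of the kinesin-2 motor that builds primary cilia, and its loss in tubule cells of mice leads to cystic, fibrotic kidney disease. The KSP-Cre driver uses the promoter of Ksp-cadherin, which is active in tubule epithelium and not in the interstitium, so other cells of the kidney keep the gene. sActRIIB-Fc, called the trap here, is a soluble activin receptor type IIB that binds activins and related ligands outside the cell and keeps them from their receptors. Activins signal through SMAD2 and SMAD3, are made in injured tubules and fibroblasts, and are known for roles in fibrosis and in muscle loss.

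Values are the deposited log2 intensities, and changes are differences of log2 means ± standard error from limma, so that a change of 1 is 2-fold. Genes with an adjusted p under 0.05 (Benjamini-Hochberg, over 17782 genes) are those called. Across genes, pairs of treated mutant arrays correlated at 0.987 to 0.994 and pairs of untreated wild-type arrays at 0.994 to 0.996. The tissue label fitted the markers: Umod, the uromodulin of the thick ascending limb, lay at 13.50, 13.48, 13.57 and 13.39 in treated mutants and at 13.59, 13.76 and 13.61 in untreated wild type, while a list of 16 skeletal muscle genes averaged 4.25 to 4.51 and 4.76 to 4.90 in these groups. Xist was at 4.54 to 5.13 and the Y-linked Eif2s3y at 7.42 to 8.98 over all 15 kidney arrays. The targeted gene gave no check of the genotype, because the place of its probe sets relative to the deleted part is not known here and Kif3a is kept outside the tubules. The brightest Kif3a probe set was at 7.37, 7.75, 7.39 and 8.0 in treated mutants and at 7.76, 7.89 and 7.84 in untreated wild type, and the groups overlapped (change −0.20 ± 0.15, adjusted p = 0.267). Its dimmer probe sets changed by −0.30 (adjusted p = 0.0277) and −0.28 (adjusted p = 0.0526). The mean of all its probe sets was called lower (−0.26, adjusted p = 0.0437).

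The limma test, which is two-sided, called 8425 genes, or 47.4% of those tested, with 3933 higher (22.1%) and 4492 lower (25.3%) in treated mutants. Of these, 2189 differed by at least 2-fold, 1336 of them higher and 853 lower, and the median change over all genes was −0.08. Some array-wide measures moved with the groups. The 18S ribosomal RNA control probe sets averaged 12.39, 12.38, 12.70 and 12.003 in treated mutants and 13.06, 13.01 and 12.97 in untreated wild type, with no overlap. With that signal as a covariate 3975 genes were called, 2278 higher and 1697 lower. Because the signal did not overlap between the groups, that fit cannot separate it from the group difference. Array medians did not overlap either, at 6.19 to 6.24 in treated mutants and 6.09 to 6.13 in untreated wild type. Centring each array on its median gave 10078 calls, of which 32.7% were higher, against 46.7% higher without centring. The median change over all genes was −0.19 after centring.

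The 12 largest rises included genes of injured tubule epithelium, matrix, cytokine signalling and macrophages. Lcn2, the iron-binding lipocalin and kidney injury marker NGAL, was at 12.31, 13.02, 13.18 and 13.20 in treated mutants and at 5.56, 5.13 and 5.11 in untreated wild type. The groups were far apart, and the change of 7.66 ± 0.23 (adjusted p = 2.34e-11) is 202-fold. Col12a1, a fibril-associated collagen, was at 11.14, 10.68, 11.79 and 12.15 in treated mutants and at 6.28, 6.03 and 6.22 in untreated wild type (5.27 ± 0.33, adjusted p = 1.84e-08). Serpina10, the protein Z-dependent inhibitor of clotting protease, lay at 10.24, 10.56, 11.15 and 10.64 against 5.43, 5.69 and 5.40, a change of 5.14 ± 0.19 (adjusted p = 1.38e-10). Neither gene's groups overlapped.

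The other members of the 12 largest rises were Sprr2f (5.27), a small proline-rich protein of stressed epithelia, Lgi2 (4.77), the chloride channel accessory gene Clca3a2 (4.75), the cytokine feedback inhibitor Socs3 (4.62), the metalloproteinase inhibitor Timp1 (4.35), the adhesion molecule Vcam1 (4.32), the mechanical-stress gene Ankrd1 (4.23), the complement component C1qb (4.17) and the mucin Muc4 (4.15). All 12 were also called in untreated mutants against untreated wild type, with changes of 3.88 for Vcam1 to 8.12 for Lcn2. Both comparisons use the same untreated wild-type arrays.

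**Figure D1:**
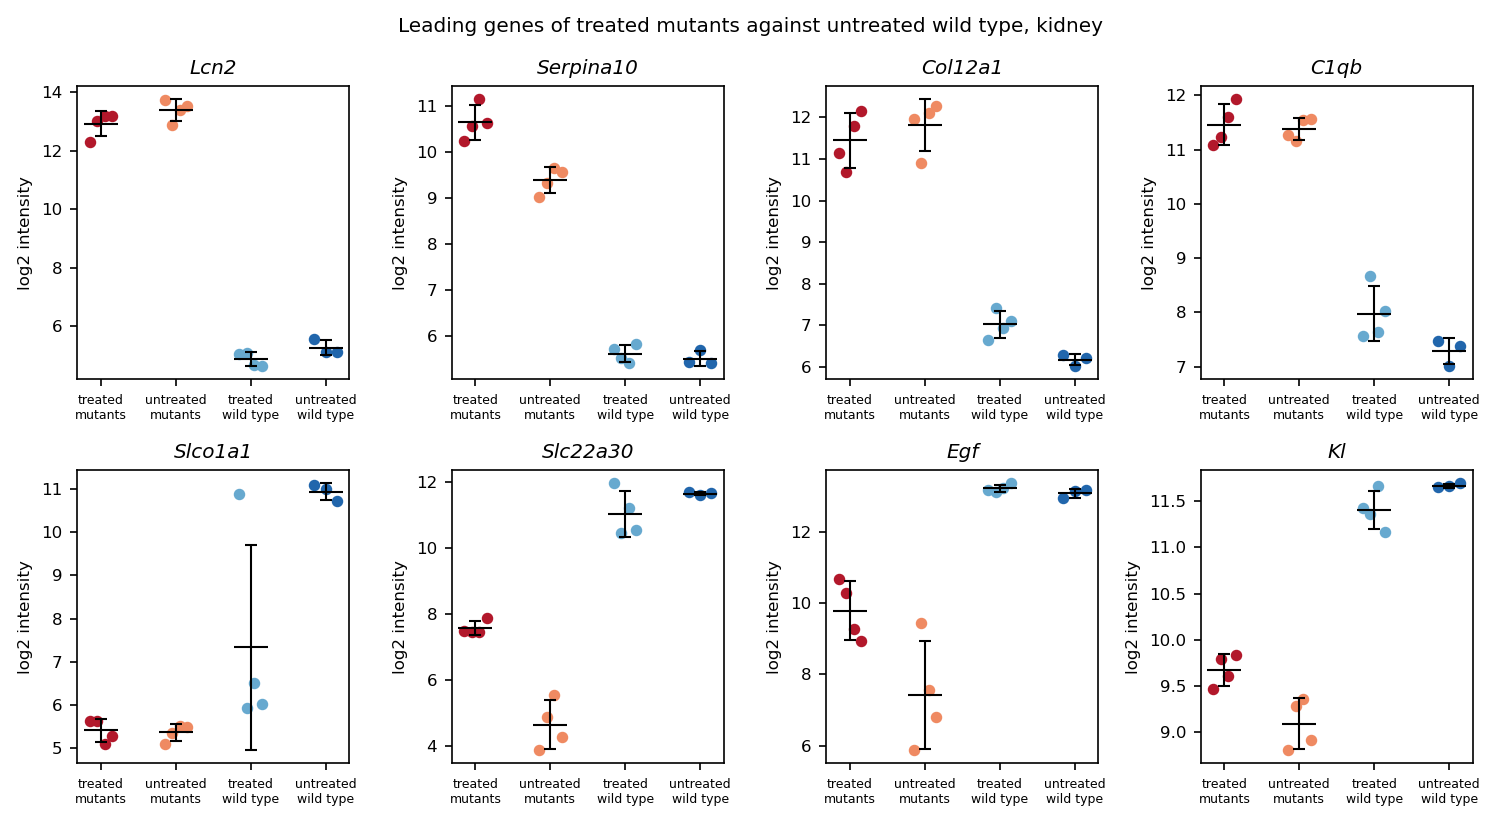
Log2 intensity (y axes) of 8 genes in each kidney array (points) of the treated mutants, untreated mutants, treated wild type and untreated wild type, with the mean and SD of each group (black). Lcn2, Serpina10, Col12a1 and C1qb are higher in both mutant groups than in wild type, Slc22a30, Egf and Kl are lower in both, and Slco1a1 is also low in 3 of the 4 treated wild-type arrays.

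Of the 12 largest falls, 5 were in genes of the proximal tubule lists. Slco1a1, an organic anion transporter of its luminal membrane, was at 5.62, 5.63, 5.10 and 5.29 in treated mutants and at 11.09, 11.01 and 10.72 in untreated wild type. The groups did not overlap, and the fall of 5.53 on the log2 scale (SE 0.82, adjusted p = 6.22e-05) is 46.2-fold. Slc7a13, a transporter of acidic amino acids, was at 7.67, 8.79, 8.81 and 8.02 in treated mutants and at 12.78, 13.00 and 12.94 in untreated wild type (−4.58 ± 0.53, adjusted p = 5.59e-06). Both are known to be higher in male than in female mouse kidney, as is the sterol hydroxylase Cyp7b1 (−2.96 ± 0.89, adjusted p = 0.0127), whose call was lost with the 18S covariate (−2.42, adjusted p = 0.238).

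In treated wild type these genes were uneven. Slco1a1 read 10.89, 5.93, 6.50 and 6.03 there, so that 1 array lay with untreated wild type and 3 lay near the mutants. Cyp7b1 read 12.39, 7.30, 10.85 and 7.49 in the same arrays. Neither differed from untreated wild type past the threshold (Slco1a1 −3.61, adjusted p = 0.0553; Cyp7b1 −2.25, adjusted p = 0.283). Between treated mutants and treated wild type, Slco1a1 differed by −1.92 ± 0.76 (adjusted p = 0.0502) and Cyp7b1 by −0.71 ± 0.82 (adjusted p = 0.493).

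The remaining large falls were Pzp (−4.61), a broad protease inhibitor, Dpys (−4.23), the dihydropyrimidinase of pyrimidine breakdown, the calcium-binding parvalbumin Pvalb (−4.17), the organic anion transporter gene Slc22a30 (−4.08), the proteoglycan Nepn (−4.0), Slc22a22 (−3.98), a prostaglandin transporter, the steroid dehydrogenase gene Akr1c14 (−3.90), C1qtnf3 (−3.76), D630029K05Rik (−3.73) and the acyl-CoA synthetase Acsm3 (−3.71). Slc22a30 was at 7.49, 7.45, 7.46 and 7.89 in treated mutants and at 11.69, 11.61 and 11.67 in untreated wild type. With the 18S signal as a covariate Akr1c14 (−3.11) and Acsm3 (−2.82) were no longer called.

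Promoter windows are shown for 4 named genes because they stand for a rise, a fall or a level near untreated wild type and carry different motif letters. Sprr2f (chr3:92364937-92365186, plus strand) is among the largest rises. Cxcl10 (chr5:92348890-92349139, minus strand) is the leading gene of the interferon list, Pzp (chr6:128526721-128526970, minus strand) is among the largest falls, and Cdhr2 (chr13:54701213-54701462, plus strand), a brush-border cadherin, lay close to untreated wild type in treated mutants. Each run holds the 250 bases before the annotated start, 5′ to 3′ on the gene's strand, from RefSeq on GRCm38.p6. Capitals mark letters that match a searched motif on either strand.
Sprr2f: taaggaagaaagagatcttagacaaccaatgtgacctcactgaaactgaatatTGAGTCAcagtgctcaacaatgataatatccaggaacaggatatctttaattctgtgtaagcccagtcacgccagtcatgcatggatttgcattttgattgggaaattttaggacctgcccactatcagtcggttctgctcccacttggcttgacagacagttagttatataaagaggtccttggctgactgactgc
Cxcl10: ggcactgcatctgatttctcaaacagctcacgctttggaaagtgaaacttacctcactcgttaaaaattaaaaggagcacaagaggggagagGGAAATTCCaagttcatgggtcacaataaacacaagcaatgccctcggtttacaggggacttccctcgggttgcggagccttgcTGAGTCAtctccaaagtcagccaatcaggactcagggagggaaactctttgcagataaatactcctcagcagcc
Pzp: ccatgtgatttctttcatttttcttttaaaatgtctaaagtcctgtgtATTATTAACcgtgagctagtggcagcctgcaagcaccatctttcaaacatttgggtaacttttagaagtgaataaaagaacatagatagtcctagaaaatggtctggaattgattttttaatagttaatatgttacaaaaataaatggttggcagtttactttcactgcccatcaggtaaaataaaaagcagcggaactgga
Cdhr2: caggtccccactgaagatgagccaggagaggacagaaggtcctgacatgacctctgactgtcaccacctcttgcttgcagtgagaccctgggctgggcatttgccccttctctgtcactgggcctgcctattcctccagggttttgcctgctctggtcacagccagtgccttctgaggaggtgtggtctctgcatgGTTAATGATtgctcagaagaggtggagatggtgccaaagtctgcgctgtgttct

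The motifs searched were GGANTTTCC for NF-kB, TGANTCA for AP-1, GTTAATNAT for HNF1 and CAAAGTCCA for HNF4, on both strands, in windows of 250 bases before to 50 after the start. RefSeq windows were found for 14176 of the 17782 genes. In the runs above the match begins 197 bases before the start for AP-1 in Sprr2f, 158 for NF-kB and 74 for AP-1 in Cxcl10, 202 for HNF1 in Pzp and 54 for HNF1 in Cdhr2. NF-kB letters were in the windows of 1.6% of all genes, 3.34% of genes called higher by at least 2-fold and 1.86% of genes called lower by at least 2-fold. The share was 38.1% in the list of NF-kB and cytokine genes (8 of 21 with a window), which was assembled from known targets. AP-1 letters were in 7.58% of all genes, 10.9% of those higher and 6.71% of those lower, and in 7 of 15 genes of matrix proteases and inhibitors with a window (46.7%). HNF1 letters were in 0.727% of all genes, 0.786% of those higher and 2.71% of those lower. HNF4 letters were in 0.585%, 0.589% and 2.29% of the same sets. The proximal tubule lists held few of either. HNF1 letters were in 0 of 27 transporters and 1 of 27 enzymes and receptors with a window, and HNF4 letters in 1 and 0. In the tubule injury list, whose called members rose, HNF1 letters were in 3 of 19 (15.8%). These shares describe letters in a window, not binding.

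Proximal tubule genes were lower as a group, and none of the listed members was higher. Of 31 proximal transporters measured, 27 fell and 0 rose, with a median change of −1.65, beside −0.08 over all genes. Of 31 proximal enzymes and receptors, 23 fell and 0 rose (median −1.55). Here and below, fewer cells of a type and less RNA per cell cannot be told apart in whole-tissue RNA. Slc34a1, the main sodium-phosphate cotransporter of the proximal tubule, was at 11.28, 11.30, 10.56 and 11.08 in treated mutants and at 13.13, 13.13 and 13.09 in untreated wild type, a fall of 2.06 on the log2 scale (SE 0.29, adjusted p = 3.89e-05). The endocytic receptors Lrp2, which encodes megalin, and Cubn, which encodes cubilin, fell by 1.71 ± 0.30 and 1.04 ± 0.31 on the log2 scale. With the 18S covariate 22 of the transporters and 15 of the enzymes and receptors were called lower, and Cubn was not.

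Untreated mutants had larger falls in the same lists. The median was −2.24 for transporters and −2.41 for enzymes and receptors in untreated mutants against untreated wild type, where 24.9% of all genes were called higher and 26.7% lower. Set directly against untreated mutants, treated mutants had 7 transporters and 7 enzymes or receptors higher and 0 lower, where 1.07% of all genes were called higher and 1.33% lower. The transporters were Slc22a19, Slc22a30, Slc22a7, Slc22a2, Slc9a3, Slc17a1 and Slc17a3. Per-array list levels were 9.69, 9.55, 9.26 and 9.48 in treated mutants, 7.70, 9.10, 8.72 and 8.56 in untreated mutants and 11.39, 11.37 and 11.40 in untreated wild type for transporters. The 3 groups did not overlap, and replicate 1 of the untreated mutants was the lowest.

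Slc22a19 was chosen for its large difference from untreated mutants, so it is not typical of its list. The median difference of treated from untreated mutants was 0.73 for transporters and 0.89 for enzymes and receptors. Slc22a19, an organic anion transporter gene, was at 9.84, 9.46, 9.33 and 9.04 in treated mutants, at 4.31, 6.24, 4.92 and 4.88 in untreated mutants and at 11.19, 11.62 and 11.56 in untreated wild type. Treated mutants were higher than untreated mutants by 4.33 ± 0.30 (adjusted p = 2.72e-06) and lower than untreated wild type by −2.04 ± 0.32 (adjusted p = 0.000112). Dnase1, a secreted endonuclease, was at 10.61, 10.47, 8.69 and 9.21 in treated mutants, against 13.35, 13.46 and 13.44 in untreated wild type (−3.67 ± 0.44, adjusted p = 8.2e-06), and its difference from untreated mutants was 2.34 (adjusted p = 0.00671). Ugt3a1, a glycosyltransferase, differed by −2.2 from untreated wild type and by 2.2 from untreated mutants.

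Metabolic genes were mostly lower. Of 42 genes of oxidative phosphorylation 41 fell, the exception being Ndufa2 (−0.15, adjusted p = 0.155), and the median was −0.64. Cox7a1, a subunit of cytochrome c oxidase, had the largest fall of the list (−1.51 ± 0.25, adjusted p = 0.00014) and Ndufs1, of complex I, fell by 1.26 on the log2 scale. With the 18S covariate 30 of the 42 were lower, without Cox7a1. Fatty acid oxidation and PPAR targets had 24 of 32 lower and 0 higher (median −0.80), and 10 lower with that covariate. Cytochrome P450 and conjugation genes had 18 of 27 lower and 2 higher (median −1.54), and 8 lower with the covariate. No oxidative phosphorylation gene was called between treated and untreated mutants, and the list median of that difference was 0.14. That comparison called 1.07% of all genes higher and 1.33% lower.

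In the thick ascending limb and distal tubule 16 of 22 genes fell and 1 rose (median −0.63). Egf, the epidermal growth factor made by the distal tubule, was at 10.67, 10.29, 9.26 and 8.95 in treated mutants, at 5.87, 9.44, 7.56 and 6.81 in untreated mutants and at 12.95, 13.14 and 13.17 in untreated wild type. Its groups overlapped between treated and untreated mutants, and it fell by 3.29 against untreated wild type (SE 0.59, adjusted p = 0.000318), a call that was lost with the 18S covariate (−2.38). Kl, which encodes Klotho, the co-receptor for FGF23, was at 9.47, 9.79, 9.61 and 9.83 in treated mutants and at 11.65, 11.66 and 11.69 in untreated wild type (−2.0 ± 0.14, adjusted p = 6.53e-08). Slc12a3, the thiazide-sensitive sodium-chloride cotransporter, was lower by −1.51 ± 0.19 than in untreated wild type (adjusted p = 1.59e-05) and higher by 1.47 than in untreated mutants (adjusted p = 0.000562). Umod was not called (−0.16 ± 0.14, adjusted p = 0.349).

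Collecting duct genes went the other way. Of 18 principal cell genes 17 rose and 0 fell, with a median of 1.96. The epithelial keratins Krt18 and Krt19 rose by 3.59 ± 0.20 and 3.33 ± 0.22, and Aqp2, the vasopressin-regulated water channel, was at 12.04, 12.32, 12.13 and 12.46 in treated mutants against 10.04, 9.61 and 9.68 in untreated wild type (2.46 ± 0.34, adjusted p = 3.09e-05). Avpr2, the vasopressin V2 receptor, rose by 2.01 ± 0.09. Against untreated mutants 5 of the 18 were lower and 0 higher, where 1.33% of all genes were called lower and 1.07% higher. Among the 5 were the 3 subunits of the epithelial sodium channel, Scnn1a (−1.09), Scnn1b (−0.67) and Scnn1g (−0.67). All 3 subunits remained higher than in untreated wild type, by 0.77, 1.57 and 1.27.

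Genes of intercalated cells, which secrete acid or base in the collecting duct, were lower in treated mutants than in either untreated group. Of 14 genes measured 9 fell and 3 rose against untreated wild type (median −0.65), and 9 fell and 0 rose against untreated mutants (median −0.79), while untreated mutants had a median of 0.04. Of all genes, 1.33% were called lower and 1.07% higher against untreated mutants, and 25.3% lower and 22.1% higher against untreated wild type. Mean list levels were 7.35, 7.75, 7.24 and 7.15 in treated mutants, 8.07, 8.31, 8.13 and 8.09 in untreated mutants and 7.81, 7.76 and 7.96 in untreated wild type. Treated mutants lay below both, with replicate 2 just under the lowest untreated wild-type array. Treated wild type lay at 7.86 to 8.32.

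Subunits of the vacuolar proton pump were among these genes. Atp6v1b1 was at 8.97, 8.97, 8.26 and 8.57 in treated mutants, at 9.10, 10.01, 9.23 and 9.64 in untreated mutants and at 9.29, 9.22 and 9.48 in untreated wild type. The treated mutants did not overlap either group (−0.63 ± 0.20, adjusted p = 0.0196 against untreated wild type, and −0.80 ± 0.19, adjusted p = 0.0381 against untreated mutants). Atp6v0d2 (−0.63 and −1.01) and Atp6v1c2 (−0.67 and −0.57) were lower in both comparisons too, as was Hepacam2, an adhesion molecule found in intercalated cells (−1.15 and −1.01). Hmx2, a homeobox gene, was lower by −1.14 and −1.05, with its highest treated mutant array at 5.25 and its lowest untreated wild-type array at 5.27. Hmx2 lost its call against untreated wild type with the 18S covariate (−0.76, adjusted p = 0.226). The exchangers Slc4a1 (−1.69) and Slc26a4 (−1.50) fell against untreated wild type and were not called against untreated mutants (−0.07 and −0.43). Slc4a1 lost its call against untreated wild type with the 18S covariate (−1.19, adjusted p = 0.125).

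Other intercalated cell genes were not lower than in untreated wild type. Foxi1, the transcription factor needed for these cells, was at 7.75, 7.98, 7.30 and 7.33 in treated mutants, at 8.84, 9.12, 8.83 and 8.77 in untreated mutants and at 7.78, 7.17 and 7.89 in untreated wild type, so that treated mutants overlapped untreated wild type (−0.03 ± 0.21). Kit, Rhcg, an ammonia transporter, and Dmrt2 were higher than in untreated wild type by 0.48, 1.06 and 0.45, the last not called with the 18S covariate (adjusted p = 0.0674). With the 18S covariate 3 of the 14 genes were called lower and 0 higher against untreated wild type, and the median was −0.57. Atp6v1b1 lost its call against untreated wild type with that covariate, and also without treated mutant replicate 3 (adjusted p = 0.063) and without untreated wild-type replicate 3 (adjusted p = 0.0756). Against untreated mutants, and over 15 fits that each left out 1 kidney array, Hmx2 was called in 4, Atp6v1b1 in 7, Atp6v1c2 in 10 and Hepacam2 in 15, and with the 18S covariate none of these 4 was called (adjusted p = 0.583, 0.328, 0.274 and 0.131).

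**Figure D2:**
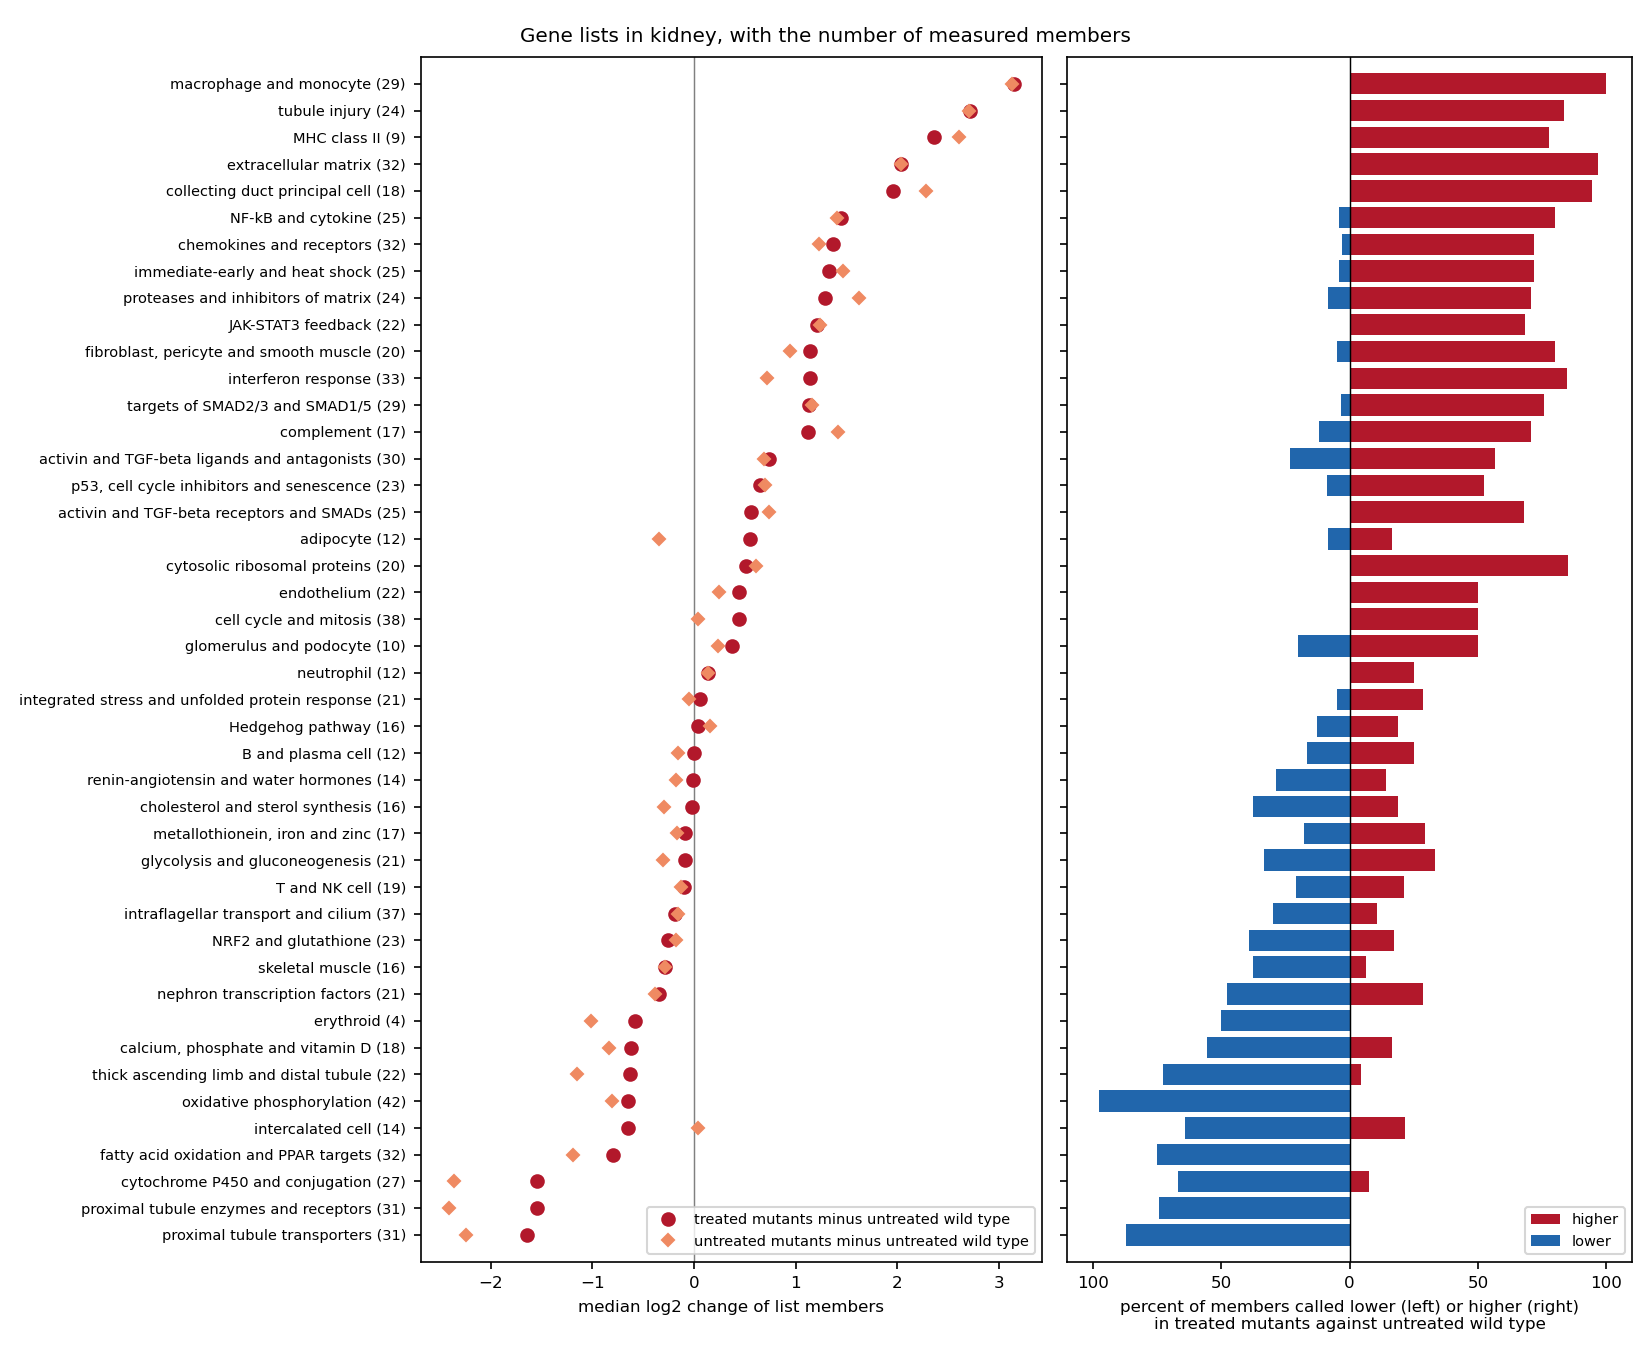
Gene lists (rows, with the number of measured members) by the median log2 change of their members in treated mutants minus untreated wild type (circles) and untreated mutants minus untreated wild type (diamonds), and by the percent of members called lower or higher in treated mutants against untreated wild type (bars). Circles and diamonds lie close for macrophage, injury and matrix lists, circles lie nearer 0 for proximal tubule lists (−1.65 and −2.24 for transporters), and the intercalated cell list is below 0 in treated mutants alone (−0.65 and 0.04).

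Tubule injury genes stayed high. Of 24 measured, 20 rose and 0 fell, with a median of 2.72 in treated mutants and 2.70 in untreated mutants, each against untreated wild type. All 20 were also called with the 18S covariate. Of the 24, 4 were higher and 1 lower in treated than in untreated mutants, where 1.07% of all genes were called higher and 1.33% lower. The largest of these differences was in Havcr1, which encodes KIM-1, a phagocytic receptor that injured proximal tubule cells display. It was at 10.71, 11.48, 12.39 and 12.04 in treated mutants, at 9.07, 8.39, 8.12 and 8.17 in untreated mutants, at 10.44, 9.58, 10.64 and 9.89 in treated wild type and at 8.05, 8.81 and 8.36 in untreated wild type. All 4 treated mutants lay above every other array, and untreated mutants overlapped untreated wild type. The change was 3.25 ± 0.36 against untreated wild type (adjusted p = 3.61e-06), 3.22 ± 0.33 against untreated mutants (adjusted p = 0.000149) and 1.52 ± 0.33 against treated wild type (adjusted p = 0.00152). Treated wild type was itself higher than untreated wild type by 1.73 (adjusted p = 0.0336), a comparison that called 0.326% of genes higher and 0.551% lower. With the 18S covariate Havcr1 differed from untreated mutants by 3.60 (adjusted p = 0.033), and its lower second probe set changed by 2.36 against untreated wild type.

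The fibrinogen chains, which injured tubules are known to make, were called higher in treated than in untreated mutants. Fgg was at 11.23, 10.28, 11.18 and 10.73 in treated mutants, at 9.84, 9.81, 9.52 and 9.70 in untreated mutants and at 6.77, 6.64 and 7.47 in untreated wild type, with no overlap between any of these groups. Against untreated mutants Fgg, Fga and Fgb were higher by 1.13, 1.09 and 1.07 (adjusted p = 0.0435, 0.024 and 0.0327). Serpina10 was higher by 1.25 ± 0.17 in the same comparison (adjusted p = 0.00148). Anxa1, annexin A1, was lower by −0.67 than in untreated mutants and still higher by 2.74 than in untreated wild type.

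Matrix genes were high in both mutant groups. Of 32 extracellular matrix genes 31 rose and 0 fell, the exception being Mfap4 (0.46, adjusted p = 0.077), and the medians were 2.03 in treated and 2.04 in untreated mutants. Col1a1, the main fibrillar collagen of scar, was at 9.16, 9.44, 9.90 and 9.98 in treated mutants against 6.75, 6.39 and 7.04 in untreated wild type (2.89 ± 0.41, adjusted p = 4.17e-05). The fibronectin gene Fn1 (3.32) and the crosslinking enzyme Lox (3.36) rose as well. None of the 32 was called between treated and untreated mutants by limma (median 0.09). That comparison called only 1.07% of all genes higher and 1.33% lower. Proteases of the matrix and their inhibitors had 17 of 24 higher and 2 lower, with a median of 1.29, where untreated mutants had 1.62. They were led by Timp1 and the membrane metalloproteinase Mmp14 (3.09). Mmp7, matrilysin, and Adam8 were lower by −1.32 and −0.68 than in untreated mutants (adjusted p = 0.00963 and 0.0464) and still higher than in untreated wild type by 1.09 and 1.51. Fibroblast, pericyte and smooth muscle genes had 16 of 20 higher and 1 lower (median 1.14), with Thy1 at 3.51 ± 0.27 and Acta2, smooth muscle actin, at 2.31 ± 0.32.

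The ligands that the trap binds were themselves high in treated mutants. Inhba, the subunit of activin A, was at 6.93, 6.81, 7.37 and 7.05 in treated mutants and at 5.22, 5.46 and 5.59 in untreated wild type, a change of 1.62 ± 0.12 (adjusted p = 1.18e-07) or 3.07-fold. Inhbb, the subunit of activin B, was at 8.91, 7.95, 9.18 and 8.78 against 5.23, 5.24 and 5.02 (3.54 ± 0.29, adjusted p = 1.9e-07). Its 2 probe sets disagreed, and the other changed by 0.13 ± 0.12 (adjusted p = 0.414). The antagonists Fst, follistatin (1.36 ± 0.18), and Fstl3 (0.78 ± 0.22) rose, as did the 3 TGF-beta ligands Tgfb1 (0.98), Tgfb2 (2.15) and Tgfb3 (1.75). Fstl3 lost its call with the 18S covariate (0.48, adjusted p = 0.323). Over the list of 30 ligands and antagonists 17 rose and 7 fell, with a median of 0.74, against 0.69 in untreated mutants. None of the 30 was called between treated and untreated mutants, where 1.07% of all genes were called higher and 1.33% lower.

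Receptors were uneven. The activin type II receptors Acvr2a (8.92 on average in treated mutants and 8.87 in untreated wild type) and Acvr2b (6.65 and 6.67) overlapped between the groups. Tgfbr2, the type II receptor of TGF-beta, was at 11.29, 11.38, 11.48 and 11.79 in treated mutants against 9.65, 9.52 and 9.58 in untreated wild type (1.90 ± 0.11, adjusted p = 9.77e-09), and Smad1 rose by 1.54 ± 0.11. Of 25 receptors and SMADs 17 rose and 0 fell, and 6 rose with the 18S covariate. Targets of SMAD2/3 and SMAD1/5 had 22 of 29 higher and 1 lower (median 1.13). Their median was 1.16 in untreated mutants, and the connective tissue growth factor gene Ccn2 stood at 12.13, 11.43, 12.48 and 12.85 in treated mutants against 9.17, 9.43 and 9.11 in untreated wild type (2.98 ± 0.34). The inhibitory Smad7 (0.56 ± 0.14) and Id1 (0.73 ± 0.28, adjusted p = 0.0411) rose less, and Id1 lost its call in 6 of the alternatives tried.

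Of 29 macrophage and monocyte genes measured all 29 rose, with a median of 3.15 in treated mutants and 3.13 in untreated mutants. All 29 were called with the 18S covariate too. C1qb, a chain of the complement recognition protein that macrophages make, was at 11.09, 11.22, 11.60 and 11.92 in treated mutants and at 7.48, 7.01 and 7.38 in untreated wild type (4.17 ± 0.24, adjusted p = 9.38e-09). Adgre1, which encodes the macrophage marker F4/80, rose by 2.87 ± 0.27 and Lyz1 by 4.12 ± 0.24. MHC class II genes had 7 of 9 higher (median 2.36), and chemokines and their receptors 23 of 32 higher and 1 lower (median 1.37), led by Ccl9 (3.50) and Ccl6 (3.20).

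Between treated and untreated mutants 1 of the 29 was higher and 1 lower, where 1.07% of all genes were called higher and 1.33% lower. Vsig4, a complement receptor of resident macrophages, was at 7.78, 7.68, 6.64 and 7.63 in treated mutants, at 4.87, 4.88, 4.85 and 4.73 in untreated mutants, at 5.40, 6.05, 5.09 and 4.97 in treated wild type and at 4.29, 4.21 and 4.12 in untreated wild type. Treated mutants lay above all other arrays, and treated wild type lay above both untreated groups. The change was 3.22 ± 0.26 against untreated wild type (adjusted p = 1.53e-07), 2.60 ± 0.24 against untreated mutants (adjusted p = 4e-05) and 1.17 in treated against untreated wild type (adjusted p = 0.0466). Cd163, a scavenger receptor, was 3.45 higher than in untreated wild type and −0.86 lower than in untreated mutants (adjusted p = 0.0494). Adgre4, an adhesion receptor of macrophages outside the list, was at 5.03, 5.42, 5.51 and 5.62 in treated mutants against 4.14, 4.07 and 4.29 in untreated wild type (1.23 ± 0.18) and was not called in untreated mutants (0.03, adjusted p = 0.902).

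**Figure D3:**
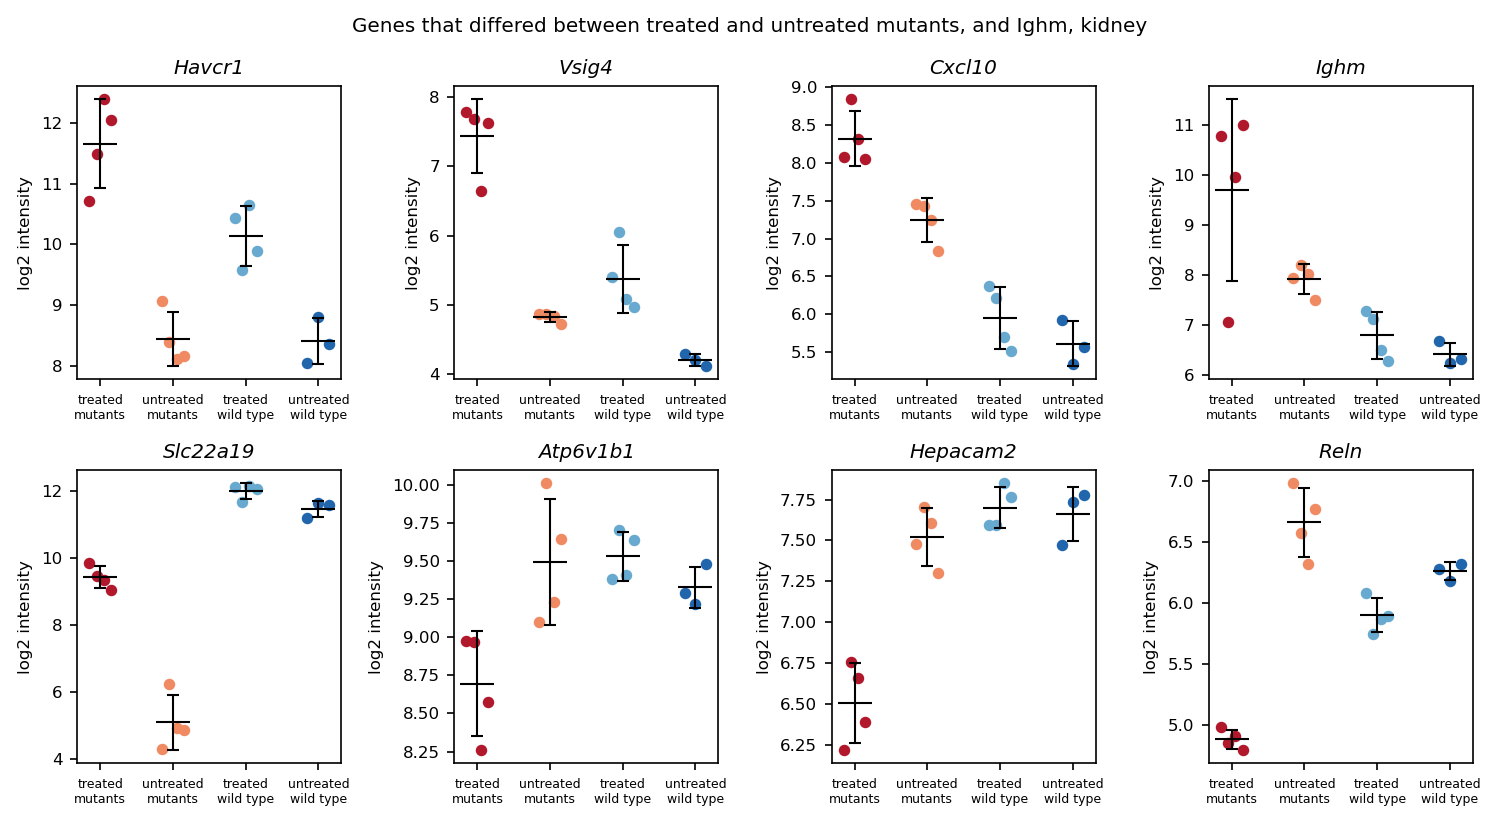
Log2 intensity (y axes) in each kidney array (points) of treated mutants, untreated mutants, treated wild type and untreated wild type, with the mean and SD of each group (black), for 7 genes that differed between treated and untreated mutants and for Ighm, which did not pass that test. Havcr1, Vsig4 and Cxcl10 are highest and Atp6v1b1, Hepacam2 and Reln lowest in treated mutants, Slc22a19 lies between untreated mutants and wild type, and Ighm is low in 1 of 4 treated mutants (7.06).

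Lists of T and NK cells and of neutrophils had small median changes, and some immunoglobulin probe sets rose. T and NK cell genes had 4 of 19 higher and 4 lower (median −0.09), and neutrophil genes 3 of 12 higher and 0 lower. For comparison, 22.1% of the genes on the arrays rose against untreated wild type and 25.3% fell. The T and NK cell counts and the neutrophil rises lay near these shares and say little about either list. Ighm, the heavy chain of IgM, was at 10.77, 7.06, 9.96 and 10.99 in treated mutants, at 7.95, 8.21, 8.03 and 7.51 in untreated mutants and at 6.68, 6.24 and 6.33 in untreated wild type. Replicates 1, 3 and 4 of the treated mutants were high and replicate 2 was not. The change was 3.28 ± 0.65 against untreated wild type (adjusted p = 0.000753), and the difference of 1.77 ± 0.60 from untreated mutants did not pass (adjusted p = 0.149). Its probe sets disagreed. Against untreated wild type the second brightest changed by 2.61 (adjusted p = 0.00289). All dimmer Ighm probe sets changed by only −0.19 to 0.22, and none of them was called. Jchain, the joining chain of secreted IgM, had the same order of arrays at 7.74, 4.75, 7.66 and 7.95. Its change of 2.14 ± 0.69 (adjusted p = 0.0191) lost its call with the 18S covariate and when any of 4 single arrays was left out. S100a8, a neutrophil gene, was highest in replicate 2 (8.69, with 5.31, 6.46 and 5.40 in the others, against 4.03, 3.66 and 4.16 in untreated wild type).

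Interferon response genes were high in treated mutants. Of 33 measured 28 rose and 0 fell, with a median of 1.14, where untreated mutants had 0.71, and 27 rose with the 18S covariate. Cxcl10, an interferon-induced chemokine, was at 8.07, 8.84, 8.32 and 8.06 in treated mutants, at 7.46, 7.43, 7.24 and 6.83 in untreated mutants and at 5.93, 5.34 and 5.56 in untreated wild type, with no overlap. Against untreated mutants, where 1.07% of all genes were called higher and 1.33% lower, 6 of the 33 were higher and 0 lower. They were Cxcl10 (1.08), Cxcl9 (1.24), Gbp3 (0.71), Gbp6 (1.12), Bst2 (0.61) and Stat2 (0.56). Gbp6 and Cxcl9 were not called against untreated wild type (0.36 and 0.78). Mndal and Phf11d, interferon-inducible genes in mice, were called in treated mutants against untreated wild type (1.11 and 0.77) and not in untreated mutants (0.20 and 0.21).

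The other inflammatory and stress lists below had more members higher than lower against untreated wild type. NF-kB and cytokine genes had 20 of 25 higher and 1 lower (median 1.45), led by Vcam1 and Nfkbiz (2.67 ± 0.25), a nuclear inhibitor of the NF-kB family. JAK-STAT3 feedback genes had 15 of 22 higher, with Socs3 and the cytokine Clcf1 (3.52 ± 0.23). Complement genes had 12 of 17 higher and 2 lower (median 1.12, where untreated mutants had 1.42). Immediate-early and heat shock genes had 18 of 25 higher and 1 lower, with the transcription factors Egr2 (3.85) and Egr1 (3.09). Genes of p53, cell cycle inhibition and senescence had 12 of 23 higher and 2 lower, among them Cdkn1a, at 9.07, 9.08, 9.41 and 8.82 in treated mutants against 7.04, 6.93 and 7.16 in untreated wild type (2.05 ± 0.34). Cytosolic ribosomal protein genes had 17 of 20 higher and 0 lower, by a median of 0.51.

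Cell cycle genes differed more from treated than from untreated wild type. Of 38 measured 19 rose and 0 fell against untreated wild type (median 0.44, and 5 rose with the 18S covariate). In treated wild type 0 rose and 10 fell against untreated wild type, with a median of −0.56. That comparison called 0.326% of all genes higher and 0.551% lower. Mki67, which marks dividing cells, was at 8.20, 9.04, 8.58 and 8.97 in treated mutants, at 6.04, 7.07, 6.65 and 6.49 in treated wild type and at 8.48, 7.46 and 7.43 in untreated wild type. Treated mutants overlapped untreated wild type (0.91 ± 0.27, adjusted p = 0.0116), a call lost without untreated wild-type replicate 2 (0.74, adjusted p = 0.064) without replicate 3 (0.73, adjusted p = 0.0655), with the 18S covariate (0.76, adjusted p = 0.219) and with the actin covariate (0.64, adjusted p = 0.0571). Kif11, a mitotic spindle kinesin, was the member of the list called against untreated mutants (0.60, adjusted p = 0.017). Against treated wild type 33 of the 38 were higher and 1 lower, where 22.2% of all genes were called higher and 24.2% lower.

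Cilium, vessel and fat genes gave smaller or less even differences. Of 37 intraflagellar transport and cilium genes 4 rose and 11 fell (median −0.18). Pkd1 and Pkhd1, the genes of dominant and recessive polycystic kidney disease, rose by 0.93 ± 0.18 and 0.84 ± 0.13, and Bbs7, a BBSome subunit, fell by 0.89 on the log2 scale. Endothelial genes had 11 of 22 higher and 0 lower (median 0.44, and 2 higher with the 18S covariate), with Vwf at 2.03 ± 0.31. Adipocyte genes averaged 10.09, 8.19, 8.75 and 7.87 in treated mutants and 8.70, 7.14 and 8.12 in untreated wild type, with overlap, and Fabp4 (1.61 ± 0.60, adjusted p = 0.0386) and Plin4 (1.66 ± 0.53, adjusted p = 0.0177) moved with them. Without treated mutant replicate 1 Fabp4 changed by 1.27 (adjusted p = 0.1) and Plin4 by 1.33 (adjusted p = 0.0503), and without untreated wild-type replicate 2 they changed by 1.15 and 1.31 (adjusted p = 0.181 and 0.0912). With the 18S covariate the adipocyte list median was 2.13, with 5 of 12 higher and 0 lower. Without that covariate it was 0.55, with 2 higher and 1 lower. The share of perirenal fat in this difference was not tested.

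Some genes of the disease lay near untreated wild type under the trap. By a rule that takes genes called in untreated mutants, called in the opposite direction in treated against untreated mutants and within 0.5 of untreated wild type, the largest were Mlph, H60c, Smim6, Foxi1 and Scn3a among those high in untreated mutants, and Slc5a10, Cdhr2, Car8, Bpnt1 and Spink1 among those low. The values below describe how they were chosen and support nothing further. Cdhr2 was at 8.09, 7.70, 7.55 and 7.57 in treated mutants, at 6.36, 7.13, 6.41 and 6.29 in untreated mutants and at 7.99, 8.03 and 7.91 in untreated wild type. Mlph, a linker of vesicles to myosin, was at 5.97, 5.37, 5.79 and 5.63 in treated mutants and at 5.20, 5.09 and 5.64 in untreated wild type, with a mean of 6.97 in untreated mutants. Slc5a10, a sodium-dependent mannose and fructose transporter, was at 11.57, 10.09, 9.84 and 9.88 against 10.55, 10.83 and 10.82, and without replicate 1 of the treated mutants it was called lower (−0.80, adjusted p = 0.00649). Smim6 was likewise called lower without that replicate (−0.90, adjusted p = 0.00183). Bpnt1, a phosphatase, was called lower in 9 alternatives, among them the mean of its probe sets (−0.78, adjusted p = 0.00295), and its second probe set changed by −1.07 (adjusted p = 0.000652). Spink1 was called lower in 5 alternatives, Car8 lower in 3 and Scn3a higher in 4, with changes of −0.47 to −0.37, −0.59 to −0.41 and 0.30 to 0.46.

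Genes with the largest differences between treated and untreated mutants included several that lay outside the lists. Reln, the extracellular protein reelin, was at 4.98, 4.85, 4.91 and 4.79 in treated mutants, at 6.98, 6.57, 6.31 and 6.77 in untreated mutants, at 6.08, 5.75, 5.87 and 5.89 in treated wild type and at 6.28, 6.18 and 6.32 in untreated wild type. Treated mutants lay below every other array (−1.38 ± 0.13, adjusted p = 7.79e-07 against untreated wild type, and −1.78 ± 0.12, adjusted p = 2.72e-06 against untreated mutants). Its second probe set, at a low level, changed by −0.18. P2ry14, a receptor for UDP-glucose found in intercalated cells, was at 7.0, 6.91, 7.28 and 7.13 in treated mutants, at 8.66, 8.43, 8.41 and 8.86 in untreated mutants and at 6.12, 5.95 and 6.08 in untreated wild type, so that it was lower by −1.51 than in untreated mutants and higher by 1.03 than in untreated wild type. Tspan1, a tetraspanin, and Gpr34 and Npy6r, receptors, followed the same order, with −1.55, −1.69 and −2.19 against untreated mutants and 0.62, 1.18 and 1.82 against untreated wild type, where the 18S covariate ended the calls of Tspan1 and Gpr34 (adjusted p = 0.251 and 0.0842).

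Calls of these differences between treated and untreated mutants depended on the 18S covariate. The 18S signal was 12.003 to 12.70 in treated mutants and 12.86 to 13.43 in untreated mutants. These ranges do not overlap, so a fit with this covariate cannot separate it from the group difference. With it the change went from 2.92 to 2.87 for Slc22a30, from 3.10 to 3.99 for Akr1c14 and from −1.05 to −0.62 for Hmx2. None of these was called in that fit, so a lost call need not mean a smaller change. Of 31 genes named for such a difference, 7 were called with 18S as a covariate (Havcr1, Vsig4, Slc22a19, Reln, Tspan1, P2ry14 and Dmrt2), and 21 were called whichever single kidney array was left out. The direction was the same in all alternatives for all 31. These genes were chosen for being called in this comparison, and the alternatives refit largely the same arrays. Their counts and shared direction are therefore no further support. Over all genes the count was 427 in the fit of all 4 groups and 29 with the 18S covariate. Whether RNA quality had a part in the difference was not tested.

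Treated mutants were also set against wild type given the same trap, which holds the treatment equal. Of all genes, 22.2% were called higher and 24.2% lower there. Macrophage genes had 29 of 29 higher (median 2.87), tubule injury genes 20 of 24 higher (2.38), extracellular matrix 30 of 32 higher (1.85) and proximal transporters 29 of 31 lower and 1 higher (−1.76). Intercalated cell genes had 10 of 14 lower and 2 higher (−0.85). Oxidative phosphorylation genes had 42 of 42 lower (−0.61). Other lists had another median in this comparison than against untreated wild type. It was 0.71 for immediate-early and heat shock genes, beside 1.33, with 14 of 25 higher and 1 lower. Activin and TGF-beta ligands and antagonists had 0.29, beside 0.74, with 14 of 30 higher and 4 lower. Endothelial genes had 0.15, beside 0.44, with 4 of 22 higher and 3 lower, and cell cycle genes had 1.05, beside 0.44. The comparison shares the treated mutant arrays with that against untreated wild type, so it is no independent count.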

How the data were processed

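Kidney RNA was measured on Affymetrix mouse expression arrays, per the labels. The deposited values are log2 intensities of 35088 probe sets as processed by the authors; how they were normalized is not stated in the sources at hand. Probe sets annotated to 1 symbol (31563) were kept, and each gene was represented by its brightest probe set (by mean over kidney arrays), giving 17782 genes. All 15 kidney arrays were fitted in 1 model with a mean per group (limma 3.58.1, R 4.3.3; 11 residual degrees of freedom), moderated by eBayes, with Benjamini-Hochberg adjustment over all genes for each contrast. The fit was tested on simulated data. Tables and figures used Python 3.11.15, pandas 2.3.3 and matplotlib 3.10.9. The labels give each kidney array its own number, shared with a muscle array, but do not say outright that these are separate animals. The p-values therefore measure only the spread between these samples.

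Genes were named by rule: the 12 largest called rises and falls whose groups did not overlap, the 2 largest called changes of each of 44 lists, a panel of 31 genes (28 measured), the 6 largest differences from untreated mutants in each direction, and 5 in each direction that changed in treated mutants while untreated mutants lay within 0.25 of untreated wild type, or that lay within 0.5 of it in treated mutants. These rules gave 144 genes. Others named were members of a list whose counts are given. The gene lists and members were chosen with earlier results of these data known. Alternatives covered the choice of probe set, quantile normalization, median centring, a level filter, the groups fitted, array weights, a trended prior, a replicate block, 18S and actin covariates, stricter thresholds and leaving out each array. The promoter sequence of 1 gene is not reported here.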

Additional observations from a re-analysis of the deposited data

Results flagged for a closer look

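Single treated mutant arrays stood apart from the other 3 by Dixon's criterion in 4 of 44 list levels and 5 of 77 genes checked. Chance alone marks about 1 in 20 groups. Replicate 4 was apart for the Hedgehog list mean (6.39) and for Slc22a30 (7.89). Replicate 2 was apart for the neutrophil list mean (6.53). Replicate 1 was apart for the skeletal muscle list mean (4.51), for Muc4 (5.83) and for Slc5a10 (11.57). Replicate 3 was apart for the cytosolic ribosomal protein mean (12.33), for Fst (8.75) and for Vsig4 (6.64).

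Probe sets outside the gene-level comparison carried differences too. Of 2697 probe sets with no gene listed, 1009 were called between treated mutants and untreated wild type, 452 higher and 557 lower. Of 825 probe sets that list several genes, 378 were called, 215 higher and 163 lower.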

How the results depend on the processing

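The comparison of treated mutants with untreated wild type called 8425 genes, and 5364 among genes above the median level, 3975 with the 18S covariate, 5847 at an adjusted p under 0.01 and 2189 at 2-fold or more. The actin 3′ minus 5′ covariate, chosen after the data were seen, gave 6999. Leaving out single arrays gave 6836 to 9169. Treated against untreated mutants called 427 genes, 226 with only the compared groups in the fit, 29 with the 18S covariate, 125 at an adjusted p under 0.01, 98 at 2-fold or more, and 179 to 770 without single arrays, lowest without untreated mutant replicate 4 and highest without untreated mutant replicate 2. Untreated mutants against untreated wild type called 9174 genes, 5807 above the median level, 2716 at 2-fold or more and 7760 to 9801 without single arrays. Treated against untreated wild type called 156 genes, 73 above the median level, 20 with only the compared groups, 580 with array weights, 10 with the 18S covariate, 63 at 2-fold or more, 19 at an adjusted p under 0.01 and 24 to 410 without single arrays, lowest without untreated wild-type replicate 1 and highest without treated wild-type replicate 1. Treated mutants against treated wild type called 8252 genes, 5201 above the median level, 1977 at 2-fold or more and 7155 to 8485 without single arrays. The cause of these shifts was not tested, except that the median filter tests fewer genes and the stricter thresholds are stricter by construction.

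With the replicate number as a block the counts were 7835 for treated mutants against untreated wild type, 433 for treated against untreated mutants and 53 for treated against untreated wild type. Deviations of same-numbered arrays correlated at −0.12 to 0.34 and not every pair passed 0.1, so the numbers were not taken to pair the arrays.

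Among list medians 991 of 1098 values under alternatives moved by less than the spread between arrays and 106 moved by more. Of the medians larger than that spread, that of NRF2 and glutathione turned sign, at 0.054 with the 18S covariate and −0.26 without it. Sign changes of smaller medians were not counted. One such was glycolysis and gluconeogenesis, at 0.015 with that covariate and −0.085 without it. Among named genes 3477 of 3561 values kept their side of the threshold, 60 lost a call and 24 gained one. None changed direction while called in either fit, and direction was not counted for values called in neither. Of 28 genes that lost a call in any alternative, 24 lost it with the 18S covariate. Precision is limited by how many arrays there are.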

Other observations

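Further lists are given here for treated mutants against untreated wild type, where 22.1% of all genes were called higher and 25.3% lower (median −0.08). Counts near these shares say little about a list. Of 21 nephron transcription factors 6 rose and 10 fell (median −0.34). Hnf4a, the regulator of proximal tubule identity, fell by 1.21 ± 0.16 on the log2 scale, the nuclear receptors Nr1h4 and Ppara by 1.90 and 1.28, and Sox4, a factor of developing nephrons, was at 11.47, 11.43, 11.92 and 11.73 in treated mutants against 9.46, 9.19 and 9.21 in untreated wild type (2.35 ± 0.18, adjusted p = 9.1e-08). Calcium, phosphate and vitamin D genes had 3 of 18 higher and 10 lower (median −0.62), with the vitamin D receptor Vdr lower by −1.21 and Slc34a2, the phosphate transporter better known from lung and gut, higher by 2.12. Renin-angiotensin and water hormone genes had 2 of 14 higher and 4 lower, and Ace, which makes angiotensin II, was lower by −1.27 than in untreated wild type and higher by 0.73 than in untreated mutants. Glycolysis and gluconeogenesis split: the gluconeogenic G6pc (−2.17), Pcx (−1.76) and Fbp1 (−1.31) fell, and the glycolytic Hk2 (2.15), Pfkp (1.22) and the glucose transporter Slc2a1 (1.09) rose, within a list that had 7 of 21 higher and 7 lower.

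Iron and metallothionein genes had 5 of 17 higher and 3 lower (median −0.09), near the shares and the median over all genes. The largest changes of the list were in Lcn2, which is also in the injury and neutrophil lists, and in Cp, ceruloplasmin (3.63 ± 0.16). Tfrc, the transferrin receptor, was the 1 member that differed from untreated mutants (1.19, adjusted p = 0.00778). Antioxidant genes of the NRF2 and glutathione list had 4 of 23 higher and 9 lower (median −0.26), with the 3 superoxide dismutases Sod1 (−0.68), Sod2 (−0.92) and Sod3 (−0.99) lower. Sterol synthesis genes had 3 of 16 higher and 6 lower, integrated stress and unfolded protein genes 6 of 21 higher and 1 lower, Hedgehog genes 3 of 16 higher and 2 lower, and glomerular genes 5 of 10 higher and 2 lower. B and plasma cell genes had 3 of 12 higher and 2 lower, erythroid genes 0 of 4 higher and 2 lower, and skeletal muscle genes 1 of 16 higher and 6 lower at levels near the bottom of the scale.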
